A study of Drosophila melanogaster with 4 samples.

Results

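The POF clusters of the X chromosome are the regions on X that the authors' list for the whole series (the replicate set) marks as enriched for POF. They number 1589 of the 9053 enriched clusters in that list. Chromatin immunoprecipitation followed by sequencing (ChIP-seq) of POF was done on formaldehyde-treated nuclei from sieved heads of Drosophila melanogaster, wild-type Oregon-R, at the mixed adult stage. The 2 ChIP libraries each have a list of clusters of their own and each has an input library as its background, while no values of the 2 input libraries were analysed here. Read depth is unknown. The flies came from population cages with overlapping cycles. The labels give neither the ages nor the share of males and females, and nothing says that the replicates were separate cultures, so any spread seen between them may be technical.

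POF is an RNA-binding protein known for coating chromosome 4, where it binds the RNA of active genes and raises their output, working together with heterochromatin proteins. The X of male flies is served by a different system, the MSL complex with its roX RNAs, which raises transcription from the single male X. Both systems act on a whole chromosome, and in some other Drosophila species POF itself sits on the male X. In Drosophila melanogaster, sites near roX1 and roX2 on X have been described as POF targets. Positions below are those of FlyBase release 5 and carry no gene names, because the gene table at hand follows release 6.

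The X was sparsely dotted with narrow POF clusters, at about the density of an autosomal arm. ChIP replicate 1 had 1061 clusters on X, or 47.3 per Mb, and ChIP replicate 2 had 926, or 41.3 per Mb. The autosomal arms 2L, 2R, 3L and 3R together had 52.7 per Mb in replicate 1 and 42.5 per Mb in replicate 2. X clusters covered 10.8% of X in replicate 1 and 9.97% in replicate 2, against 11.8% and 10.2% of the autosomal arms. In replicate 1 X lay below each single autosomal arm, which had 50.1 to 57.6 clusters per Mb and 11.2% to 13.0% cover. In replicate 2 it lay within their ranges of 39.8 to 47.5 per Mb and 9.31% to 11.5%. The covered share of X was thus 0.948 ± 0.0365 times that of the autosomal arms (SD, n = 2). An exact two-sided sign-flip permutation test over the replicates gave p = 0.5, which is the smallest value that 2 replicates allow.

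In the replicate set the X was covered to 15.8%, against 15.3% of the autosomal arms, a ratio of 1.03. The order of X and autosomal arms therefore differed between the replicate lists and the replicate set. For scale, chromosome 4 was covered to 67.6% in replicate 1 and 65.4% in replicate 2. XHet, the placed heterochromatic piece of X, held 12 clusters of the replicate set, which are not among the 1589, while the lists of replicates 1 and 2 put 4 and 5 there.

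**Figure D1:**
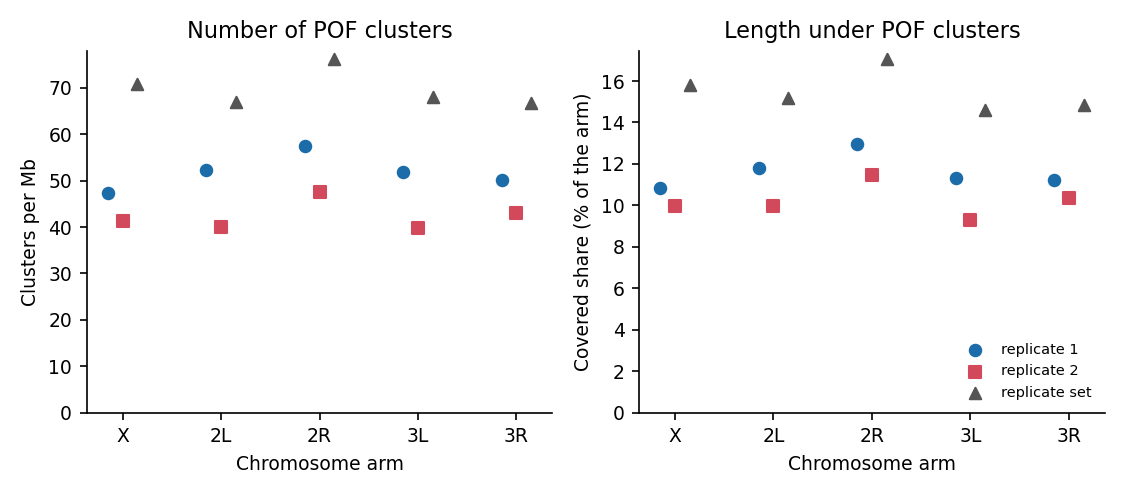
POF clusters per Mb (left) and share of each arm under clusters in percent (right) for X and the 4 autosomal arms, with 1 point per list. The X point of replicate 1, at 47.3 clusters per Mb, lies below all 4 autosomal arms. The X point of replicate 2, at 41.3, lies within their range.

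X clusters and autosomal clusters had similar median widths. The median width was 2031 bases on X and 2027 bases on the autosomal arms in replicate 1. In replicate 2, X clusters had a median of 2136 bases and autosomal ones 2164, and the replicate set gave 1975 and 2015 bases. The ratio of X to autosomal median width was 0.995 ± 0.0105 (SD, n = 2, exact two-sided sign-flip permutation p = 1). The widest X cluster of the replicate set measured 12.5 kb, and those of replicates 1 and 2 measured 16.7 kb and 10.1 kb.

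X and autosomal clusters differed, in the same direction in every list, in how they scored. The score is the value that the authors' lists give each cluster, in an unnamed unit. X is set against the autosomal arms within each list, and it is not known whether the lists share a scale. Means and correlations over the 2 replicate lists treat their units as alike. The typical X cluster had a higher score than the typical autosomal cluster, and the strongest X clusters had lower scores than the strongest autosomal ones. The lists hold only clusters that passed unknown calling thresholds. The share of males, which have a single X, is also not given. The part of either in these score differences was not tested. The median score was 0.736 on X against 0.613 on the autosomal arms in replicate 1, and 0.824 against 0.720 in replicate 2. In the replicate set it was 0.529 against 0.443. The difference of the medians, X minus autosomal arms, was 0.114 ± 0.0127 (SD, n = 2, exact two-sided sign-flip permutation p = 0.5, the smallest possible). In each of the 3 lists the X median lay above that of each of the 4 autosomal arms.

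The low end of the scores moved with the median. The 10th percentile was 0.491 on X and 0.390 on the autosomal arms in replicate 1. Replicate 2 gave 0.496 for X and 0.395 for the autosomal arms, and the replicate set 0.348 and 0.278. On X it exceeded that of every autosomal arm in each list. The high end went the other way. The 99th percentile was 2.02 on X and 2.36 on the autosomal arms in replicate 1. Replicate 2 gave 2.49 for X and 2.90 for the autosomal arms, and the replicate set 2.15 and 2.49. On X it was below that of every autosomal arm in each list. The difference at the 99th percentile averaged -0.374 ± 0.0469 over the replicates (SD, n = 2, exact two-sided sign-flip permutation p = 0.5, the smallest possible). At the 90th percentile the replicates had opposite signs, 0.0386 in replicate 1 and -0.0497 in replicate 2.

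**Figure D2:**
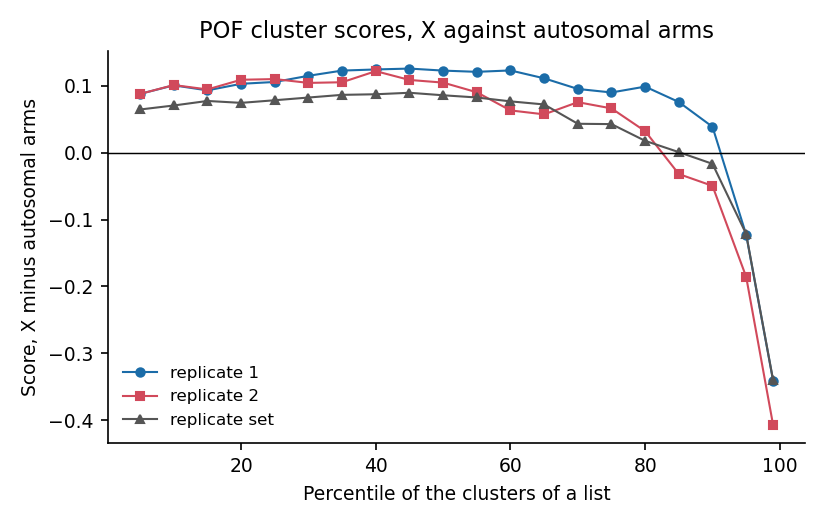
Score of X clusters minus score of autosomal-arm clusters at the same percentile of a list (vertical axis, in the score units of each list, which may differ) against the percentile (horizontal axis), with 1 line per list. All 3 lines lie above 0 at the median, where the differences are 0.123, 0.105 and 0.0857, and below 0 at the 99th percentile, where they are -0.341, -0.407 and -0.340 (replicate 1, replicate 2, replicate set).

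The same shape showed in counts. X held 8 of the 100 highest large-arm scores of replicate 1, 7 of those of replicate 2 and 9 of those of the replicate set, while its part of all clusters would put 17.2, 18.4 and 19.2 there. Among the 100 lowest scores, 3, 5 and 11 were on X in the same order of lists. Among the 1000 highest, X held 204, 198 and 194 clusters, against 172, 184 and 192 by its part of all clusters. These counts follow from the percentiles above and were not tested.

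The higher X median was present in each of 4 width classes. In the replicate set, clusters under 1301 bases had a median score of 0.500 on X and 0.405 on the autosomal arms, and those of 1301 to 1999 bases had 0.403 and 0.321. Clusters of 2000 to 2999 bases had 0.725 on X and 0.675 on the autosomal arms, and wider ones had 0.886 and 0.844. It was also present among clusters found again in the other replicate. There the medians were 0.812 on X and 0.720 on the autosomal arms in replicate 1, and 0.911 and 0.817 in replicate 2.

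Scores equal in every digit to that of another cluster on the same arm were also more frequent on X. They made up 15.8% of X clusters in replicate 1, against 8.38% to 10.8% on the single autosomal arms. In replicate 2 they made up 7.67% of X clusters against 3.04% to 6.08% on those arms, and in the replicate set 15.4% against 6.02% to 9.54%. Of the 245 such X clusters of the replicate set, 136 were overlapped in neither replicate and 33 in both, and their median width was 1242 bases. Leaving out all scores that recur within a list gave a mean difference of the medians of 0.138. The reads behind a score are not known, and their part in the higher X median was not tested.

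Support of the 1589 X clusters was counted as at least 1 base shared with a cluster of a replicate list. Both replicates overlapped 726 X clusters, or 45.7% (exact 95% binomial interval 43.2% to 48.2%). Such an interval covers counting error and treats clusters as independent, which neighbours are not, so it is too narrow. The same rule met 47.4% of the clusters of the whole replicate set, and 51.3% of those on the autosomal arms. Replicate 1 alone overlapped 243 X clusters and replicate 2 alone 162. Neither replicate overlapped 458, or 28.8% (26.6% to 31.1%), against 27.2% of the whole replicate set and 23.4% of the autosomal arms. The X share in both lay below, and the X share in neither above, those of each single autosomal arm. The replicate set is a single list, so this difference has no replicate check.

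Between the replicate lists themselves the difference from the autosomes did not have a constant direction. Of the replicate 1 clusters on X, 70.6% were overlapped in replicate 2, against 69.5% on the autosomal arms. Of the replicate 2 clusters on X, 81.1% were overlapped in replicate 1, against 85.2% on the autosomal arms. The Jaccard index, which is the length covered in both replicates over the length covered in either, was 0.587 on X and 0.602 on the autosomal arms, where the single arms ranged from 0.588 to 0.614. In both replicates at once, 7.70% of X and 8.27% of the autosomal arms were covered.

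X clusters with support in both replicates were mostly wide and high-scoring, and a wide cluster also has more bases that can be overlapped. The 726 found in both replicates were 2537 bases wide and scored 0.806 at the median, and they made up 62.5% of the length that X clusters cover in the replicate set. The 458 found in neither had 1211 bases and 0.478, and they made up 16.9% of that length. On the autosomal arms the clusters found in both made up 66.8% of the covered length and those found in neither 13.5%. Those found only in replicate 1 had 1651 bases and 0.444, and those found only in replicate 2 had 1886 bases and 0.424. By width, 0 of 348 X clusters under 1301 bases were found in both, against 15.2% of those of 1301 to 1999 bases. The share was 81.1% for those of 2000 to 2999 bases and 94.2% for wider ones. On the autosomal arms the same classes gave 0 of 1384, 17.6%, 88.7% and 94.2%. The narrowest cluster was 1301 bases in either replicate list and 1001 bases in the replicate set, so the narrowest class has no like in the replicate lists.

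Ranked by score, 94.2% of the 397 highest X clusters were found in both replicates, 55.4% of the next 397, 18.9% of the third 397 and 14.3% of the lowest 398. Among the highest, 21 of 397 X clusters were found in neither. Over 4 sets cut the same way, the shares in both on the autosomal arms were 96.6%, 69.8%, 21.5% and 17.2%, each above that of X.

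**Figure D3:**
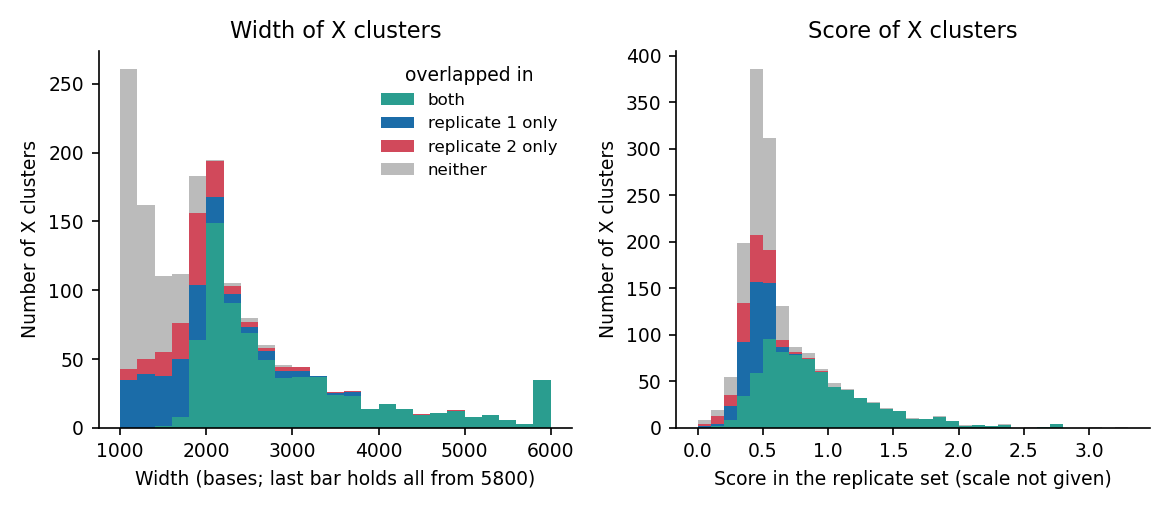
Number of X clusters of the replicate set by width in bases (left) and by score (right), stacked by the replicates that overlap them. Clusters found in both replicates (726) fill the range from about 2000 bases upwards, and those found in neither (458) fill the narrow end.

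For 662 X clusters each replicate had exactly 1 overlapping cluster, which no other of the 662 shared. Such a replicate cluster could still reach a replicate-set cluster outside the 662. The centres of the 662 in the replicates lay a median of 91.3 bases apart, and 480 of them, 72.5%, lay within 200 bases of each other. At the median they were 2124 bases wide by replicate 1, 2216 by replicate 2 and 2447 by the replicate set, and 507 were wider in the replicate set than in either replicate. Their scores in the replicates were correlated with r = 0.835 (Pearson) and rho = 0.755 (Spearman), and their widths a rho of 0.709. These are correlations across clusters of 2 libraries, given as a description. The 662 were chosen because both replicates overlap the same replicate-set cluster, so nearness of the centres is in part fixed by that choice. Clusters without such a partner do not enter the distances or the correlations. More than 1 cluster of replicate 1 lay under 37 of the X clusters, and more than 1 of replicate 2 under 34. In turn, 63 of the 1061 X clusters of replicate 1 and 10 of the 926 of replicate 2 had no cluster in the replicate set.

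**Figure D4:**
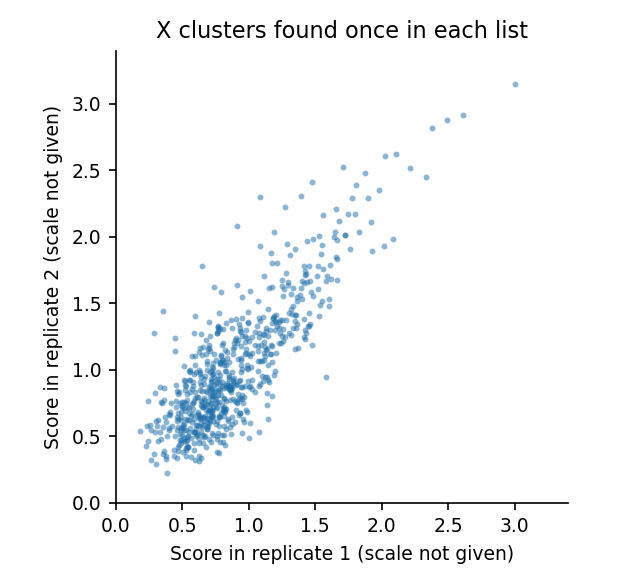
Score in replicate 2 (vertical axis) against score in replicate 1 (horizontal axis) for the 662 X clusters overlapped by exactly 1 cluster of each replicate, 1 point per cluster. The scores rise together, with a Spearman rho of 0.755.

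The 10 sites described next were taken from the clusters found in both replicates, so their recurrence was fixed by the choice, and their positions and scores are a description. Of these clusters, the one with the highest score lay at X:1902390-1905443 and scored 2.79. Replicate 1 placed it at X:1902423-1905121 with a score of 2.52, the third highest on X in its list. Replicate 2 had X:1902393-1905384 with a score of 3.13, the second on X, and a second cluster of 1.38 kb beside it.

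The next site was X:15878954-15882136, which scored 2.78. It was the top X cluster of each replicate, at X:15879828-15882107 with a score of 3.00 in replicate 1 and at X:15879810-15882099 with 3.15 in replicate 2. The edges of the replicates differed by 18 bases at the start and by 8 at the end. In the replicate set the same site began 874 bases before the start in replicate 1.

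It was followed by X:6736919-6739313 with a score of 2.75, by X:5222376-5224911 with 2.70 and by X:1772596-1775566 with 2.60. In replicate 1 these scored 2.61, 2.49 and 2.38, and in replicate 2 they scored 2.92, 2.88 and 2.82. The first 5 sites were the first 5 on X in each replicate list, though not in the same order.

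The remaining 5 of the 10 were X:15826672-15829432, X:11765791-11768282, X:16277800-16280942, X:15750723-15755902 and X:16284419-16286738. They scored 2.39, 2.35, 2.32, 2.25 and 2.21 in the replicate set. All 10 had exactly 1 cluster in replicate 1, and 9 had exactly 1 in replicate 2. Replicate 1 ranked 9 of them among its 11 highest X scores, and X:16284419-16286738 was the exception at rank 31, while replicate 2 ranked it 8. Replicate 2 placed all 10 among its 12 highest X scores.

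Of the 10 sites, 5 lay within 536 kb, from X:15750723 to X:16286738. That stretch was chosen after the positions were seen. It held 46 clusters of the replicate set, 30 of them found in both replicates, and clusters of the replicate set covered 25.8% of it, those of replicate 1 22.3% and those of replicate 2 18.8%. Among the 20 highest X scores of each replicate, 12 were shared. All 20 of replicate 2 were overlapped in replicate 1, and 19 of replicate 1 were overlapped in replicate 2.

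The 5 widest X clusters found in both replicates scored 0.776 to 1.17, above the X median of 0.529 and far below the strongest sites. In 4 of the 5, at least 1 replicate had more than 1 cluster under the replicate-set cluster. The widest found in both replicates was X:14963156-14975610, 12.5 kb long with a score of 1.02, rank 239 on X. Replicate 1 split it in 2 clusters, the longer at X:14967845-14975046, and replicate 2 also overlapped it with 2. The next, X:4823342-4834977, was 11.6 kb long with a score of 0.947. It was a single cluster of 10.9 kb in replicate 1 and 2 clusters of 3.46 and 5.07 kb in replicate 2.

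The third, X:7595852-7606068, was 10.2 kb long with a score of 1.17. Replicate 1 had a single cluster of 16.7 kb there, the widest on X in any list, and replicate 2 a single cluster of 10.1 kb. The last 2 of the 5, X:14840627-14850415 and X:17517693-17527292, were 9.79 and 9.60 kb long and were split in 2 in each replicate. Across all X clusters, the Spearman rho of width and score was 0.545 for the replicate set, 0.663 for replicate 1 and 0.770 for replicate 2, given as a description.

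The 2 highest X scores of the replicate set belonged to clusters that neither replicate overlapped. They were X:19846526-19847526 with 3.22 and X:21543562-21544562 with 3.03, each 1001 bases wide, the narrowest width of the list. The third such cluster, X:13357663-13358663, scored 2.55 at the same width. The score of the first, 3.22, recurred in every digit in 8 clusters of the whole replicate set, all of them 1001 bases wide, and 1 of the 8 was on X. Of the 20 highest X scores in the replicate set, 15 were found in both replicates and 5 in neither. Of the 30 X clusters exactly 1001 bases wide, 25 were found in neither replicate and 0 in both. The autosomal arms had a similar split at this width. There, 77 were found in neither, 19 in replicate 1 only, 2 in replicate 2 only and 0 in both.

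Cover varied along X by a factor of 2.24 between complete 1 Mb windows, and the windows ranked alike in both replicates. Over the 22 windows the covered share ran between 7.27% and 16.5% in replicate 1 and between 6.19% and 15.3% in replicate 2, with medians of 10.6% and 9.93%. Across windows the correlation of the replicates was r = 0.903 (Pearson) and rho = 0.844 (Spearman), as a description, since windows of a library share its depth. By the mean of the replicates, cover was highest in X:15000001-16000000, with 16.5% by replicate 1 and 14.0% by replicate 2. It was followed by X:11000001-12000000 with 15.0% and 15.3%, and by X:6000001-7000000 with 14.1% and 14.6%. The lists did not share a highest window: replicate 2 and the replicate set had theirs in X:11000001-12000000. In the replicate set these 3 windows were covered to 20.3%, 23.1% and 22.1%, in the same order, and 5 windows exceeded the first.

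By the same mean, cover was lowest in X:14000001-15000000, with 7.40% by replicate 1 and 6.19% by replicate 2. This window was the lowest of replicate 2 and of the replicate set, where it stood at 9.49%, while replicate 1 was lowest in X:21000001-22000000. It holds 2 of the 5 widest X clusters and also 2 of the 3 longest empty stretches wholly or in part. The next lowest were X:21000001-22000000 with 7.27% and 7.00%, and X:18000001-19000000 with 7.58% and 7.81%. The last 4 complete windows, from 18 to 22 Mb toward the centromere, were covered to 7.89% in replicate 1 and 7.84% in replicate 2. The first 5 windows, from the telomere end, were covered to 9.62% and 8.49%, and the stretch from 15 to 18 Mb to 14.1% and 12.7%. The share of X clusters found in both replicates ranged from 32.1% to 55.8% among windows.

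**Figure D5:**
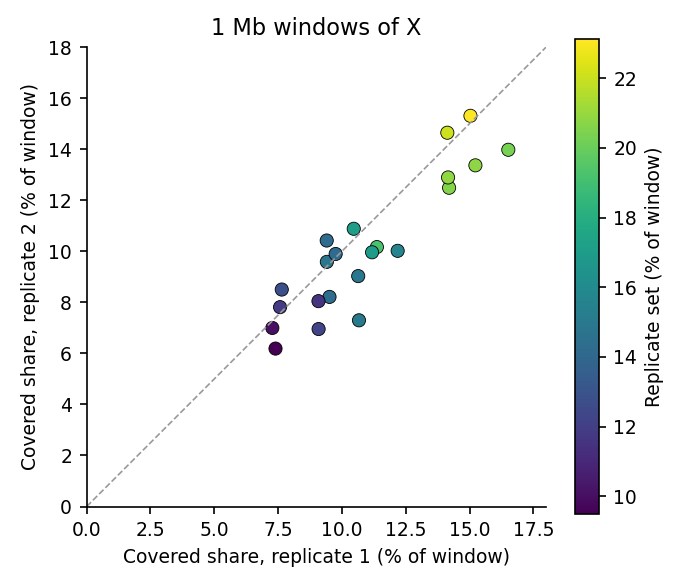
Share of each complete 1 Mb window of X under POF clusters in replicate 2 (vertical axis, percent) against replicate 1 (horizontal axis, percent), coloured by the share in the replicate set, with the dashed line marking equal shares. The 22 windows run from about 7% to 16.5% in replicate 1 and fall in a similar order in replicate 2, with a Pearson r of 0.903.

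Within windows the clusters were grouped and left long stretches bare. The median distance between neighbouring X clusters was 7249 bases in replicate 1 and 6873 in replicate 2, against 7487 and 8081 bases on the autosomal arms. Gaps of at least 50 kb, a limit chosen after the data were seen, took up 45.6% of X in replicate 1 and 54.0% in replicate 2, against 34.7% and 47.5% of the autosomal arms. By number the direction was not constant: there were 45.5 such gaps per 10 Mb of X in replicate 1 and 45.9 in replicate 2, against 39.2 and 47.3 on the autosomal arms. In the replicate set they took up 27.7% of X against 23.0% of the autosomal arms. The difference in the share taken up was 8.71 ± 3.09 percentage points (SD, n = 2, exact two-sided sign-flip permutation p = 0.5, the smallest possible). X had the highest such share of the 5 large arms in each list. At the scale of whole 1 Mb windows X lay among the autosomal arms. The coefficient of variation among its windows was 25.3% in replicate 1 and 26.2% in replicate 2, inside the 21.0% to 31.3% and 20.1% to 35.6% of the autosomal arms.

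On X, 68 stretches of 50 kb or more were free of clusters in every list, and together they made 5.64 Mb, or 25.1% of X. Those of at least 100 kb numbered 15. The longest were X:13909897-14100501 with 191 kb, X:14287373-14473513 with 186 kb and X:12050156-12229680 with 180 kb. A region listed as depleted of POF lay at X:6184391-6186149 in the replicate set, with a score of -0.0247. Replicate 1 had no cluster there, and replicate 2 had an enriched one at X:6184302-6186256 with a score of 0.559.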

How the data were processed

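POF ChIP-seq libraries and their inputs were grouped by their titles. Reads were aligned with Bowtie 0.12.7, per the submitters' processing notes, to FlyBase release 5, per the file headers. No source used here names the region caller, its thresholds, the read filters or the way the replicate set was built. The deposited lists give a position and a score per region, and X was set against other arms within a list. Read depth is unknown, so no counting error can be attached to a score.

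X clusters were the enriched regions of the replicate set on X. Chromosome lengths came from the file headers. Covered shares, medians, percentiles, overlaps and gaps were computed with numpy 2.4.6, scipy 1.17.1 and pandas 2.3.3 under Python 3.11.15. The ratio of covered share, the overlap share, the Jaccard index and the difference of median scores were tested on simulated clusters. Percentiles and gaps were not. Figures were drawn with matplotlib 3.10.9. Comparisons with the autosomal arms used the 2 replicates in exact sign-flip permutation tests, which cannot reach 0.05. No regions were shuffled, because neighbouring regions are not independent. The members and comparisons were chosen with earlier results of these data known. Named regions were the 10 highest scores and 5 widest found in both replicates, the 3 highest scores found in neither, the 3 highest and lowest windows, the 3 longest empty stretches and the depleted region. Alternatives were score, width, merging and overlap thresholds, other windows, each replicate, and other sets of arms. Genes and sequences of release 5 were not used here.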

Additional observations from a re-analysis of the deposited data

How the results depend on the processing

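The higher median score of X kept its direction in all 10 alternatives, between 0.0855 with clusters of at least 2000 bases and 0.138 without recurring scores. Of these, the restriction to clusters found in the other replicate (0.0931), the removal of recurring scores and each single autosomal arm were added after the data were seen. For each single replicate, the replicate set and each single autosomal arm, the direction already followed from the medians given above. Those alternatives are therefore not separate checks. The ratio of covered share, X over autosomal arms, passed to the other side of 1 with the higher-scoring 50% of each list (1.19) and in the replicate set (1.03). Here and below, that cut was taken at the median of all clusters of a list, chromosome 4 and heterochromatic sequence included. It therefore kept a larger part of the X clusters, where median scores are higher, than of the autosomal ones. The ratio was 0.997 with heterochromatic sequence added and 0.931 for sequence covered in both replicates, and it lay between 0.922 and 0.973 without either replicate. The ratio of median width lay between 0.987 and 1.00 without either replicate, and passed just above 1 without replicate 2. It was 0.956 with the higher-scoring 50% and 0.980 in the replicate set. The covered share of X was 7.42% with the higher-scoring 50%, 7.50% with clusters of at least 2000 bases and 15.8% in the replicate set, and between 9.97% and 10.8% without either replicate. The share of X clusters found in both replicates was 43.2% with an overlap of 50% of the cluster. It was 61.1% for X clusters in the higher-scoring 50% of the whole replicate set and 58.5% among clusters of at least 1301 bases. The share in neither was 23.9% for X clusters in the higher-scoring 50% of the whole replicate set and 14.0% among clusters of at least 1301 bases. The Jaccard index was 0.551 in the higher-scoring 50% and 0.629 for clusters of at least 2000 bases. By the mean of the replicates, highest and lowest windows differed 6.30-fold with 500 kb windows. For ChIP and input, the groups that share replicate numbers, no paired analysis was possible because no list of an input library was used here. X and the autosomal arms were compared within each replicate, which is the pairing that the sign-flip tests used.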
